A study of Mus musculus with 48 samples.

Results

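Liver expression was set against body weight in 48 mice, which are all 48 samples of the series. The weight of each mouse, between 18.7 and 34.5 g, was taken from the sample labels, and the slope of every gene on weight was estimated while the mean of each of the 12 genotype-by-time groups was held. A slope is therefore a change in log2 CPM (the read count scaled to a common library size) for each gram by which a mouse is heavier than the other mice of its own genotype and time.

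The study collected liver every 4 h over one daily cycle from mice with an adipocyte-specific knockout of Bmal1 (KO) and from wild-type mice (WT), and sequenced polyA-selected RNA. The groups held 4 KO and 4 WT mice at each of ZT0, ZT4, ZT8, ZT12 and ZT20, and 3 KO and 5 WT mice at ZT16, where ZT is zeitgeber time in hours. All mice were C57BL/6J females aged 28.75 to 105 weeks, and all had spent 1 day in constant darkness and had been fasted for 24 h. The labels used here name neither the promoter that drives the Cre nor whether the weight was taken before or after the fast. Each library held between 12841969 and 13009797 counts without Alb.

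Body weight in adult mice varies largely with fat mass, and the liver of a fasted animal takes up fatty acids released by adipose tissue, oxidises them in mitochondria and peroxisomes under control of the nuclear receptor PPARalpha, and stores the excess as triglyceride. Cholesterol synthesis is controlled by the SREBP2 transcription factor and falls during fasting. Many of these liver genes also follow the daily clock, so time of collection is a large source of variation that the group means take out.

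KO mice weighed 19.1 to 34.5 g with a median of 24.5 g, and WT mice weighed 18.7 to 25.7 g with a median of 21.7 g. The KO mean was above the WT mean at 5 of the 6 times, and the mean gap over times was 2.29 g. Mean weights in the KO groups were 26.4, 25.8, 27.95, 22.1, 22.4 and 20.2 g from ZT0 to ZT20, and those in the WT groups were 23.2, 24.0, 22.4, 20.1, 21.0 and 20.4 g. Within the groups the spread was small, with a within-group SD of 2.02 g. One mouse stood apart: ZT8 KO replicate 2 weighed 34.5 g, against 26.0, 25.8 and 25.5 g in the 3 other ZT8 KO mice. Its own deviation from its group mean made up 29.3% of all within-group variation in weight (as sums of squares), and its group made up 39.2%. A ZT16 WT mouse of 24.6 g, replicate 5, came next with 8.76%, in a group whose other mice weighed 19.1 to 21.7 g. Slopes were therefore estimated with 48 mice and again with 47 mice, leaving out the 34.5 g mouse. The within-group SD of the 47 mice was 1.60 g. Where no number of mice is given, a slope is that of 48 mice.

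**Figure D1:**
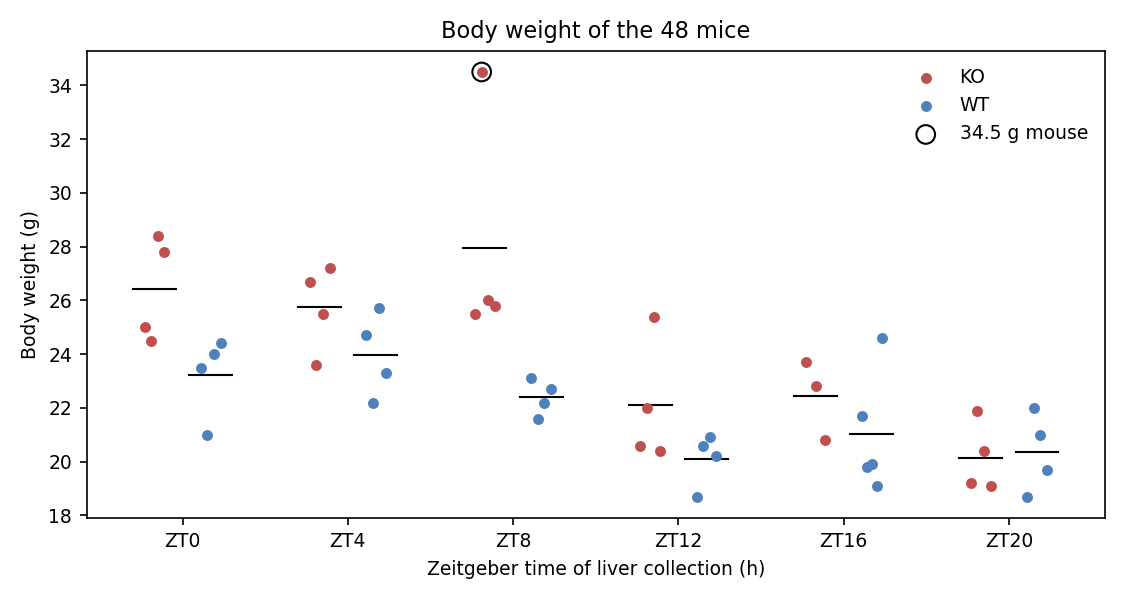
Body weight in g of each mouse by zeitgeber time, KO (red) left of WT (blue), with black lines for group means. The circled ZT8 KO mouse of 34.5 g lies far above the 25.5 to 26.0 g of the other ZT8 KO mice.

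No gene passed the threshold for a body weight slope. With 48 mice, 0 of 13646 genes tested (0.0%) had an adjusted p under 0.05 (edgeR, quasi-likelihood test, Benjamini-Hochberg). With 47 mice 0 of 13642 genes (0.0%) did. At an unadjusted p under 0.05, 527 genes (3.86%) had a positive slope and 369 (2.7%) a negative slope with 48 mice. With 47 mice the same counts were 438 genes (3.21%) with a positive slope and 554 (4.06%) with a negative one. The 2 sets shared 449 genes, which are 50.1% of the 48-mouse set and 45.3% of the 47-mouse set, and all 449 had the same sign in both. The lowest adjusted p was 0.0578 with 48 mice and 0.331 with 47 mice. DESeq2 called 7 genes with 48 mice, all with a positive slope, and 0 with 47 mice. Over a weight gap of 5 g, the 95% interval of a typical gene reached 0.35 log2 to each side with 48 mice. With 47 mice it reached 0.45 log2. Smaller relations of such a gene could not be told from 0. These intervals are not adjusted for the number of genes tested, so larger relations could also miss the adjusted threshold.

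The genes with the lowest p are described next as values that did not pass, and they were chosen after their values were seen. The lowest p belonged to 4930485B16Rik, a gene with medians of 0.724 CPM in KO livers and 0.403 CPM in WT livers, with a slope of 0.28 log2 CPM per g (SE 0.0533, adjusted p = 0.0578, edgeR), and of 0.19 with 47 mice. Second was Lipa (chr19:34566808-34601964, mm9), which encodes the lysosomal acid lipase that hydrolyses cholesteryl esters and triglycerides delivered to lysosomes.

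From the heaviest to the lightest mouse of each group, Lipa had 278, 431, 409 and 347 CPM in ZT0 KO livers, against 285, 316, 314 and 280 CPM in ZT0 WT livers. At ZT4 it had 205, 210, 254 and 216 CPM in KO livers, against 283, 205, 244 and 200 CPM in WT livers. At ZT8 it had 412, 200, 233 and 224 CPM in KO livers, against 211, 187, 189 and 176 CPM in WT livers. The 412 CPM belonged to the 34.5 g mouse, outside the range of all 7 other ZT8 mice. At ZT12 Lipa had 313, 341, 194 and 264 CPM in KO livers, against 200, 182, 191 and 209 CPM in WT livers. At ZT16 it had 366, 183 and 253 CPM in KO livers, against 421, 261, 211, 226 and 183 CPM in WT livers. At ZT20 it had 382, 320, 204 and 305 CPM in KO livers, against 322, 329, 232 and 247 CPM in WT livers. The heaviest mouse had more Lipa than the lightest in 9 of 12 groups. Such counts, here and below, use the same values as the slopes by which the genes were picked, so they add no separate evidence. They were not made over all genes. The slope was 0.10 log2 CPM per g (SE 0.0204, adjusted p = 0.112 by edgeR), which is a 1.41-fold difference over 5 g. With 47 mice it was 0.093 (95% interval 0.039 to 0.15, adjusted p = 0.335, edgeR), and without the 24.6 g ZT16 WT mouse as well it was 0.066.

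Osbpl3, an oxysterol-binding protein family member, had 15.8 CPM in the 34.5 g mouse, against 5.20, 3.08 and 4.12 CPM in the other ZT8 KO mice. Its heaviest mouse exceeded its lightest in 10 of 12 groups, with a slope of 0.20 with 48 mice and 0.18 with 47 mice. Ces2c, a carboxylesterase, had 23.9 CPM in the 34.5 g mouse and 22.9 CPM in the 24.6 g ZT16 WT mouse, against 1.73 to 3.74 CPM in the other ZT8 KO mice and 1.58 to 7.79 CPM in the other ZT16 WT mice. Its slope was 0.33 with 48 mice and 0.28 with 47. Dock8, a guanine nucleotide exchange factor studied mostly in immune cells, had a slope of 0.14 with 48 and with 47 mice. Col27a1, a fibrillar collagen chain, had a slope of 0.20 with 48 mice and 0.18 with 47, and Cpt1b, the muscle form of the mitochondrial carnitine palmitoyltransferase, had 0.25 and 0.26. Cpt1b had a median of only 0.719 CPM. Its coordinates overlap those of Chkb, with a median of 104.87 CPM, so reads of the 2 genes cannot be told apart here. The slope of 5033411D12Rik was 0.075 with 48 mice and 0.065 with 47, and its heaviest mouse exceeded its lightest in 11 of 12 groups.

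Fbf1, a centriole and cilium protein, had 109 CPM in the 34.5 g mouse, against 8.43 to 12.4 CPM in the other ZT8 KO mice, and a slope of 0.27 with 48 mice and 0.17 with 47.

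Negative slopes were led by Rrm2, the small subunit of ribonucleotide reductase, which makes deoxynucleotides for DNA synthesis. Rrm2 had 1.33 CPM in the 34.5 g mouse, against 2.34 to 4.20 CPM in the other ZT8 KO mice. It had 1.33 to 7.74 CPM in KO livers with a median of 3.09 CPM, and 2.25 to 12.5 CPM in WT livers with a median of 7.33 CPM, so the genotypes overlapped. The heaviest mouse was above the lightest in 2 of 12 groups. Its slope was -0.17 with 48 mice (adjusted p = 0.267, edgeR) and -0.18 with 47 mice (95% interval -0.28 to -0.076).

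The other 9 genes on the negative side had slopes of -0.16 to -0.060 with 48 mice and of -0.24 to -0.044 with 47. They were Vps25, an ESCRT-II subunit, Chchd7, a mitochondrial intermembrane space protein, Sumf1, which activates sulfatases, Dok4, an adaptor protein, Rps21, a protein of the small ribosomal subunit, Atp1b1, the beta subunit of the sodium pump, Zcrb1, a protein of the minor spliceosome, Npff, a neuropeptide precursor, and Gm7536. Vps25 had a median of 1.29 CPM and overlaps Ramp2 (5.36 CPM), and Dok4 had 1.21 CPM and overlaps Polr2c (26.5 CPM). With 47 mice the lowest p values on the negative side belonged to Rps21 (-0.12), 2700023E23Rik (-0.13) and Npff (-0.24), all with an adjusted p of 0.331 by edgeR. On the positive side of the 47-mouse fit, by the same rule, stood Slc39a11, a zinc transporter (0.098), Clint1, a clathrin interactor (0.082), and Igkv3-2, an immunoglobulin kappa variable segment (1.04).

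**Figure D2:**
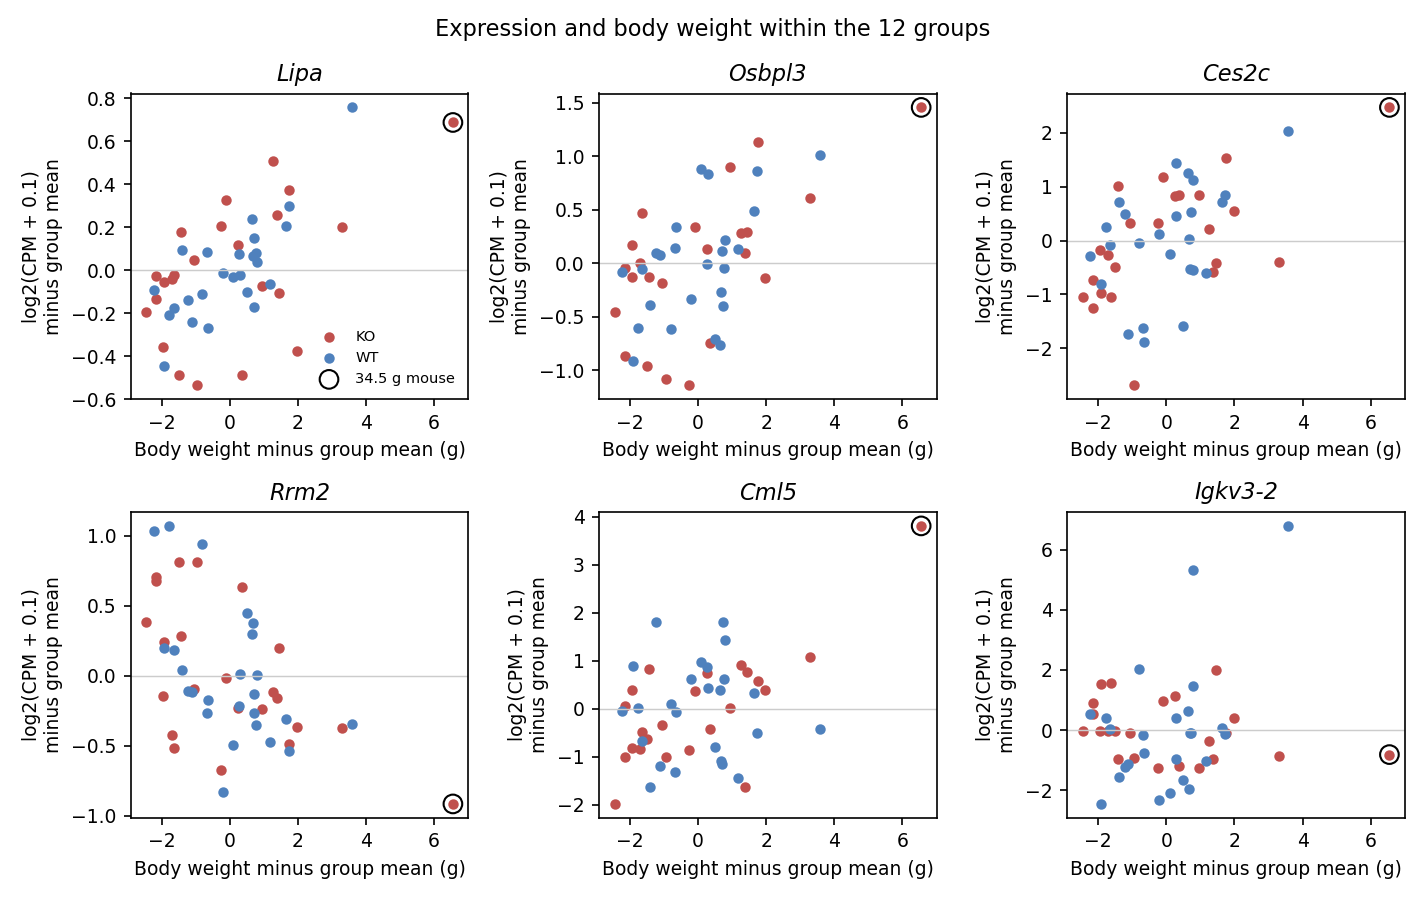
Each panel plots log2(CPM + 0.1) of 1 gene minus its group mean (vertical axis) against body weight in g minus the group mean (horizontal axis) for 48 mice, KO red and WT blue, the 34.5 g mouse circled. Lipa, Osbpl3 and Ces2c slope upwards with this mouse at the upper right, Rrm2 slopes downwards, Cml5 is set by the circled mouse, and Igkv3-2 by 2 WT mice.

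The gene groups were read by the direction of their slopes. Of 30 PPARalpha targets and genes of fatty acid oxidation and ketogenesis, all tested, 13 had a positive slope at an unadjusted p under 0.05 and 0 a negative one, against 3.86% and 2.7% of all genes, and 0 passed the adjusted threshold. All 30 slopes were above 0, with a median of 0.057 log2 CPM per g, against 0.00042 over all genes. With 47 mice the group had 6 positive and 0 negative genes at that p, against 3.21% and 4.06% of all genes. Its median was then 0.059, with 24 slopes above 0. Without the 24.6 g ZT16 WT mouse as well, 1 positive gene was left and the median was 0.029. Over all genes, 416 in either direction were then under that p, against 992 with 47 mice. Genes of 1 pathway vary together between livers, so these counts are not counts of independent relations.

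The named members of this group had small slopes. Acsl1, which activates long-chain fatty acids, had 0.11 with 48 mice and 0.12 with 47. Cpt1a, the liver enzyme that admits fatty acids to mitochondria, had 0.085 and 0.070. Hadha, a subunit of the mitochondrial trifunctional protein, had 0.079 and 0.080. Eci1, an enoyl-CoA isomerase, had 0.092 and 0.084, and Acot2, a mitochondrial acyl-CoA thioesterase, had 0.18 and 0.21. Ppara itself had 0.12 and 0.15. The unrounded slope of Acsl1 with 48 mice, 0.114, is a 1.49-fold difference over 5 g.

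All 23 tested genes of cholesterol synthesis and uptake also had slopes above 0, with a median of 0.081 with 48 mice and 0.084 with 47. The 47-mouse median turned negative when replicate numbers were also held as blocks, as given in the closing section. At an unadjusted p under 0.05, 4 of the 23 were positive with 48 mice, against 3.86% of all genes. They were Pmvk (phosphomevalonate kinase, 0.10), Fdps (farnesyl diphosphate synthase, 0.16), Fdft1 (squalene synthase, 0.098) and Nsdhl (a later sterol enzyme, 0.15). With 47 mice 2 were positive, Nsdhl (0.18) and Lss (lanosterol synthase, 0.12), against 3.21% of all genes, and with age added as well 0 were. Leaving out 1 more of the 47 mice gave 0 to 7, with 0 without ZT0 KO replicate 2. Over all genes such fits gave 416 to 1482 in either direction. In a fit with a slope for each genotype, the median of this group was 0.041 in KO mice and 0.18 in WT mice, and no member differed between the genotypes at an adjusted p under 0.05.

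Genes of lipid uptake and lipid droplets had 6 positive and 0 negative slopes of 20 at that p with 48 mice, against 3.86% and 2.7% of all genes. With 47 mice these genes had 1 positive and 1 negative slope, against 3.21% and 4.06%. Their median was 0.063 with 48 mice and 0.036 with 47. Leaving out 1 more of the 47 mice gave 0 to 5 positive genes, with 0 without ZT16 WT replicate 5. Over all genes such fits gave 416 to 1482 in either direction, with 416 without that mouse. Pparg, a nuclear receptor that drives lipid storage, had a slope of 0.086 with 48 mice and 0.079 with 47, and Fitm1 and Fitm2, which act in lipid droplet formation, had 0.15 and 0.070 with 48 mice and 0.12 and 0.054 with 47. In fatty acid and triglyceride synthesis, 4 of 22 genes were positive and 1 negative with 48 mice, against 3.86% and 2.7% of all genes. The positive ones included Scd1, the stearoyl-CoA desaturase (0.13 with 48 mice and 0.13 with 47), and Acss2, an acetyl-CoA synthetase (0.095 and 0.098). The negative one was Lpin1, a phosphatidate phosphatase (-0.18 and -0.21). With 47 mice 1 gene was positive and 1 negative, against 3.21% and 4.06% of all genes.

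Slopes of the cytosolic ribosomal protein genes lay below 0 for 22 of 24 members with 48 mice and for all 24 with 47. At an unadjusted p under 0.05, 5 were negative with 48 mice and 9 with 47, against 2.7% and 4.06% of all genes, with medians of -0.036 and -0.053. Without ZT16 WT replicate 5 the counts were 0 with 48 mice and 4 with 47. Over all genes, 543 and 416 in either direction were then under that p, against 896 and 992 with that mouse. In the fit with a slope for each genotype, 0 were negative at that p in KO mice and 8 in WT mice. Over all 13646 genes, 227 were negative in KO mice and 343 in WT mice. No gene differed between the genotypes at an adjusted p under 0.05. Rpl13a had -0.076 with 48 mice and -0.10 with 47, and Rplp1 had -0.038 and -0.073. Of 22 genes of gluconeogenesis and amino acid catabolism, 1 was negative with 48 mice, against 2.7% of all genes: Arg1, the arginase of the urea cycle (-0.088). With 47 mice 3 were negative, against 4.06%: Arg1 (-0.095), Tat, tyrosine aminotransferase (-0.16), and Ppargc1a, a coactivator of fasting genes (-0.12). The median of that group was -0.019 with 48 mice and -0.051 with 47, and in the fit by genotype it was 0.0070 in KO mice and -0.094 in WT mice. Leaving out 1 more of the 47 mice gave 0 to 7 negative genes, with 0 without ZT0 KO replicate 2. Over all genes such fits gave 416 to 1482 in either direction. Hamp, which encodes the iron hormone hepcidin, had a slope of -0.14 with 48 mice and -0.22 with 47 (adjusted p = 0.331, edgeR).

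The remaining gene groups gave 0 to 3 genes at an unadjusted p under 0.05 in each direction in both fits. With 48 mice 3 of 15 male-biased, 3 of 20 female-biased and 3 of 19 bile acid genes were positive, against 3.86% of all genes. With 47 mice 3 of 14 glucocorticoid-responsive and 3 of 24 respiratory chain genes were negative, against 4.06%. In groups this small such counts lie above those shares. These groups cover glycolysis and glycogen, insulin and growth hormone signalling, bile acids, xenobiotic metabolism, female-biased and male-biased liver genes, major urinary proteins, the acute phase, unfolded protein and heat shock responses, glucocorticoid-responsive and immediate early genes, the core clock, oxidative stress, the cell cycle, extracellular matrix, interferon response and the respiratory chain. Their medians lay between -0.043 and 0.030 with 48 mice and between -0.061 and 0.029 with 47. The median of male-biased genes was 0.018 with 48 mice and -0.034 with 47, and that of immediate early genes 0.025 and -0.012. No member of any group passed the adjusted threshold in either fit.

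**Figure D3:**
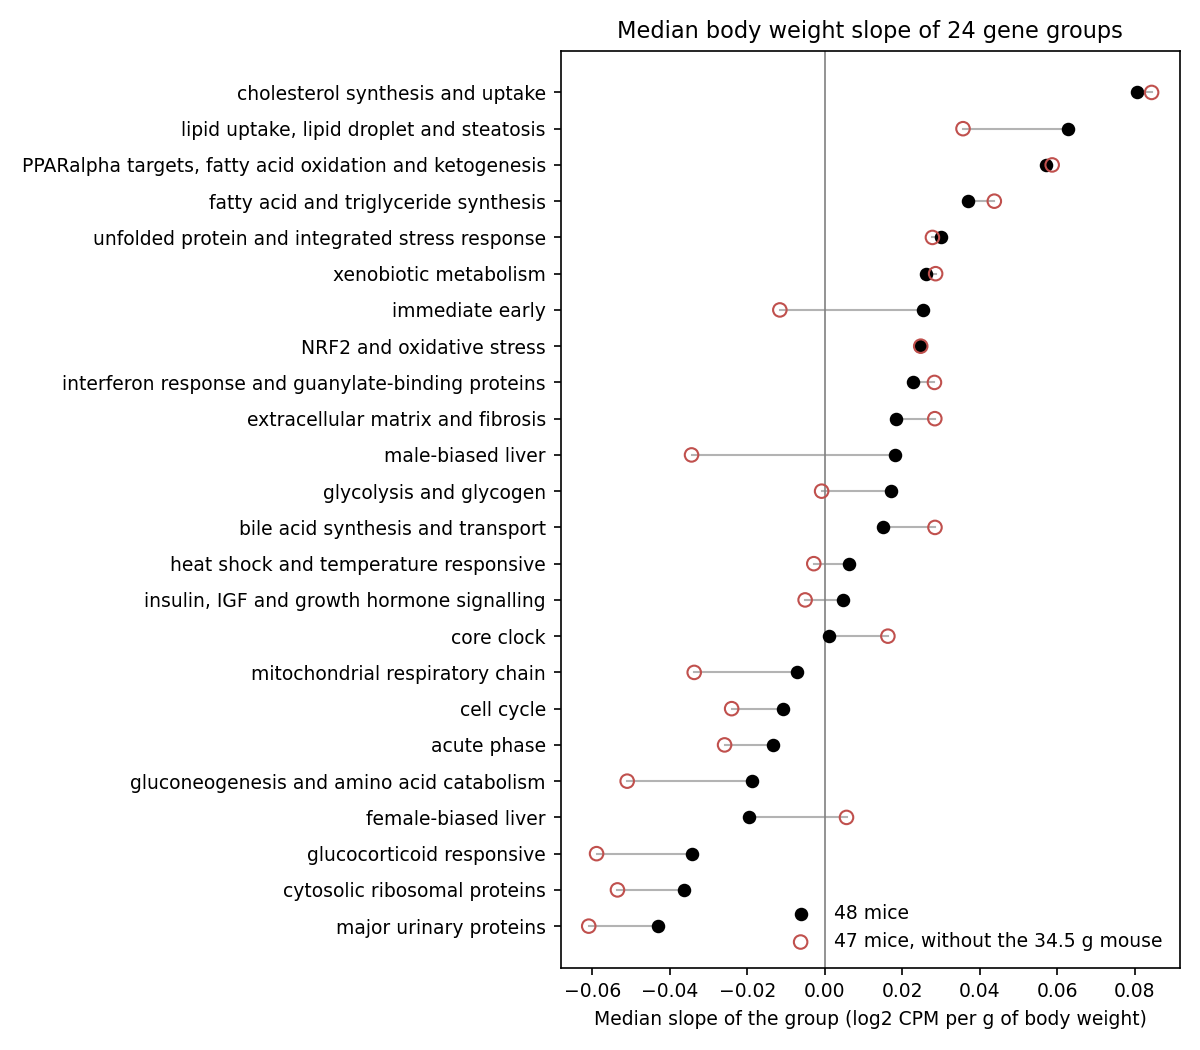
Median body weight slope (log2 CPM per g, horizontal axis) of 24 gene groups with 48 mice (filled) and with 47 mice (open). Cholesterol synthesis stands highest in both fits at 0.081 and 0.084, ribosomal proteins stand at -0.036 and -0.053, and the immediate early and male-biased groups are among those that cross 0 when the 34.5 g mouse is left out.

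The 34.5 g mouse was then set against the 3 other ZT8 KO mice. In this comparison the single mouse is assumed to vary as the mice of the other groups do. At an adjusted p under 0.05 by edgeR, 2 genes differed, both higher in the 34.5 g mouse. Cml5 (chr6:85767215-85770966, mm9), a member of the camello family of N-acetyltransferase-like proteins, had 13.3 CPM in this mouse, against 0.440, 0.375 and 0.142 CPM in the 3 others (adjusted p = 0.0266, edgeR). Every one of the other 47 mice had less than 2 CPM, from 0 to 1.69 CPM in KO livers and from 0 to 1.84 CPM in WT livers. Nat8, its neighbour and relative on chr6:85780382-85782076, had 26.6 CPM, against 3.59, 0.750 and 0.497 CPM, and an adjusted p of 0.202 by edgeR. Reads of these related genes may have been split between them in the counting. The body weight slope of Cml5 was 0.41 with 48 mice and 0.14 with 47, and that of Nat8 was 0.30 and 0.13.

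Lingo4, a leucine-rich repeat membrane protein gene, had 6.81 CPM in the 34.5 g mouse, against 1.47, 1.65 and 1.07 CPM in the other ZT8 KO mice (adjusted p = 0.0160, edgeR). Lingo4 had 5.97, 7.33, 5.80 and 4.20 CPM in ZT12 KO livers and 7.43, 9.13 and 10.04 CPM in ZT16 KO livers, so the value of the 34.5 g mouse lay within the range of ZT12. The slope of Lingo4 was 0.10 with 48 mice and -0.020 with 47.

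Some clock genes of this mouse also lay apart from its ZT8 KO companions. Dbp, a clock output factor, had 35.1 CPM, against 103 to 169 CPM in the companions and 13.5 to 57.9 CPM in ZT12 KO livers. Nr1d1, which encodes REV-ERBalpha, had 11.8 CPM, against 35.7 to 50.2 CPM in the companions and 4.00 to 13.3 CPM in ZT12 KO livers. In ZT8 WT livers Nr1d1 had 12.5 to 80.6 CPM, Dbp 89.3 to 185 CPM and Arntl 1.56 to 3.17 CPM. Arntl, which encodes BMAL1, had 6.65 CPM, against 1.58 to 3.48 CPM in the companions and 1.58 to 11.5 CPM in ZT12 KO livers. Per2, a clock repressor, had 52.1 CPM, within the 47.2 to 56.0 CPM of the companions. Clock, Npas2, Per1, Cry2, Bhlhe40 and Csnk1e also lay within the range of the companions. None of the 24 core clock genes passed the adjusted threshold in this comparison.

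As a description over those 24 genes, each mouse was set beside the mean of all other mice of each time, by the root mean square of the log2 differences. The 34.5 g mouse lay 0.80 from ZT12, 0.86 from ZT16, 1.03 from ZT4 and 1.08 from its labelled ZT8. Its companions lay 0.44 to 0.60 from ZT8 and 0.74 to 0.97 from ZT12. Of the 48 mice, 42 were nearest to their labelled time. Of the 6 that were not, 2 were the lightest of their group, ZT16 KO replicate 3 of 20.8 g and ZT0 WT replicate 2 of 21.0 g, and 2 were the heaviest: the 34.5 g mouse and ZT12 KO replicate 3 of 25.4 g, which lay 0.49 from ZT16 and 1.00 from ZT12. The group means of the model hold the labelled time only, and the part of clock gene differences within a group in the slopes was not tested.

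**Figure D4:**
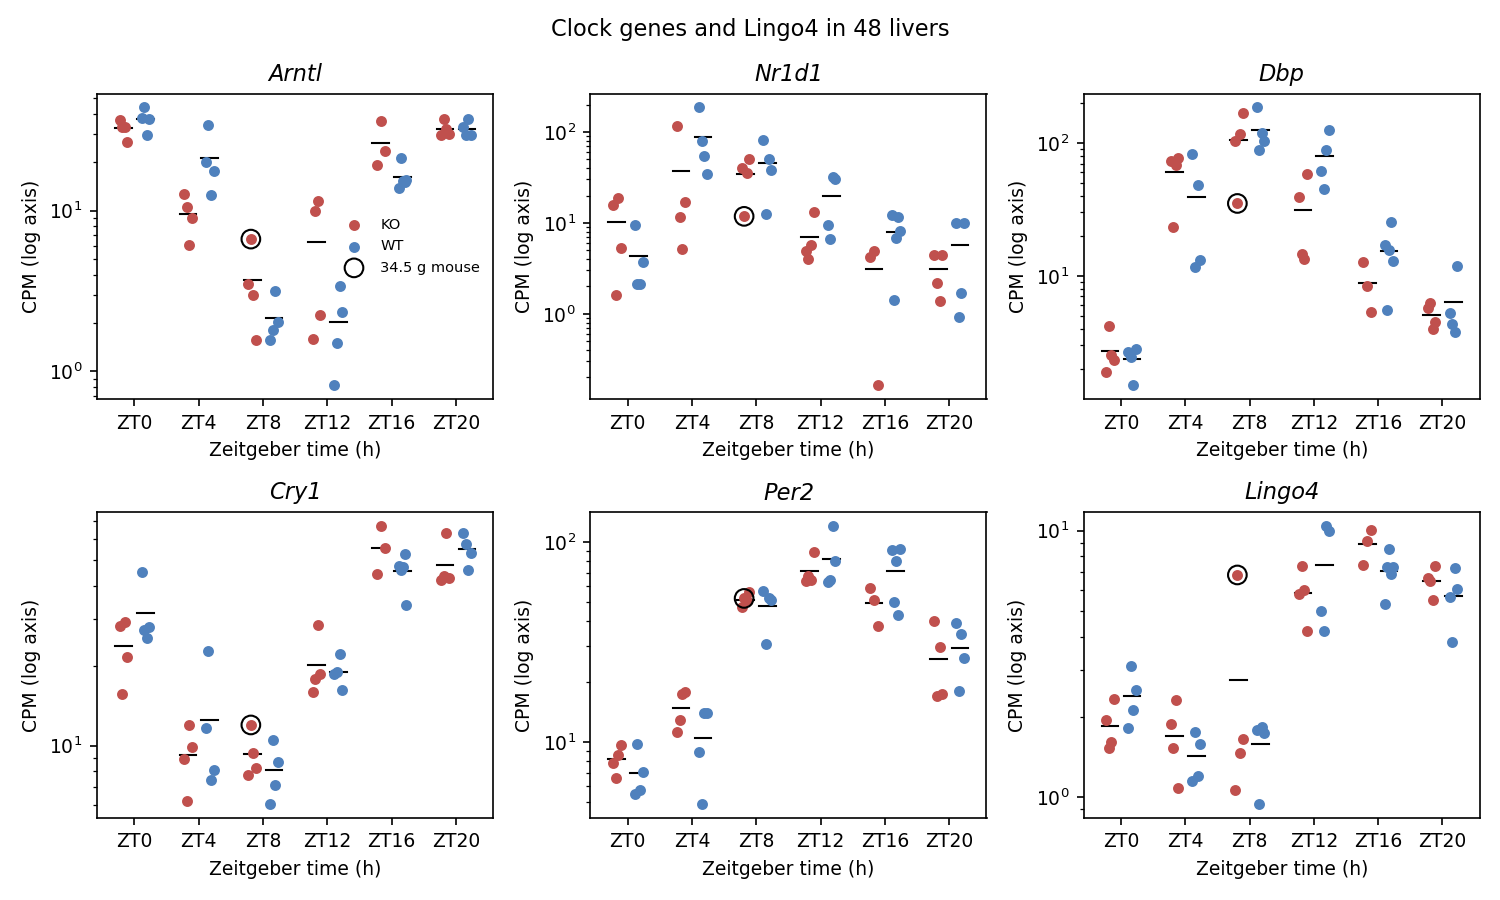
CPM (log axis) of 5 clock genes and Lingo4 by zeitgeber time, KO red and left of WT blue, black lines for group means, the 34.5 g mouse circled. For Dbp, Nr1d1 and Lingo4 the circled mouse lies outside the other ZT8 KO mice and within the range of the ZT12 KO mice.

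Cyp4a12a, a fatty acid hydroxylase known as male-biased in mouse liver, was also high in the 34.5 g mouse. It had 37.1 CPM there, against 0.952, 0.675 and 0.284 CPM in the other ZT8 KO mice, with an adjusted p of 0.748 by edgeR. It reached 12.9 CPM in a ZT20 KO mouse and 17.7 CPM in a ZT16 WT mouse, so single high values occurred in lighter mice too. Its body weight slope was 0.44 with 48 mice and 0.042 with 47. Closely related Cyp4a genes could share its reads.

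Without the 34.5 g mouse, genes of B cells and plasma cells had large positive slopes, and their highest levels were in 2 WT mice. Igkv3-2 had 112 CPM in ZT16 WT replicate 5 (24.6 g, 93 weeks), against 0.0849 to 0.360 CPM in the 4 other ZT16 WT mice. It had 31.1 CPM in ZT12 WT replicate 3 (20.9 g, 79.25 weeks), against 0.0832 to 0.164 CPM in the 3 other ZT12 WT mice. Both mice were the heaviest of their group, and no other mouse exceeded 1.96 CPM. The slope was 1.04 with 47 mice, and 0.029 when ZT16 WT replicate 5 was left out as well. With age added the 48-mouse slope was 0.49 in place of 0.78. Reads of related kappa segments may have been counted together or apart.

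Ighm, the immunoglobulin heavy chain of IgM, had 1190 CPM in ZT16 WT replicate 5 and 294 CPM in ZT12 WT replicate 3, against a WT median of 8.74 CPM, and its slope was 0.36 with 48 mice and 0.52 with 47. Ciita, the master regulator of MHC class II genes, had 5.78 CPM in the first of these mice and 2.998 CPM in the second, and a slope of 0.25 with 48 mice and 0.38 with 47. Irf4, a factor of plasma cell differentiation, had a slope of 0.24 with 48 mice and 0.33 with 47. Irf4 was higher in the heaviest than in the lightest mouse of all 12 groups, although by as little as 0.498 against 0.497 CPM in ZT8 KO livers. It was named after its values were seen, so this count is no separate evidence. Without the 34.5 g mouse and ZT16 WT replicate 5, the slope was 0.20 for Irf4, 0.27 for Ciita and 0.18 for Ighm. Of the 15 lymphocyte markers, 1 was positive at an unadjusted p under 0.05 with 48 mice and 5 with 47, against 3.86% and 3.21% of all genes. Their median slope was 0.073 and 0.12. Without ZT16 WT replicate 5, the 48-mouse median was -0.013 and the 47-mouse median 0.058, with 0 positive members in the second. Over all genes, 416 in either direction were under that p in the second. In the fit with a slope for each genotype and 48 mice, the median was -0.030 in KO mice and 0.28 in WT mice. There 0 markers were positive at that p in KO mice and 8 in WT mice, against 286 and 483 of all 13646 genes. No gene differed between the genotypes at an adjusted p under 0.05 by edgeR. The summed level of these 15 markers was 7.48 to 38.6 CPM in KO livers and 12.6 to 1246 CPM in WT livers. In bulk liver, fewer cells of a type and less RNA per cell cannot be told apart.

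Markers of other cell types were read the same way. All 8 tested neutrophil markers had slopes below 0, with medians of -0.46 with 48 mice and -0.51 with 47, and 0 were under an unadjusted p of 0.05 in either fit. With age added 2 were in each fit, and leaving out 1 mouse gave 0 to 6. Over all genes, leaving out 1 mouse gave 543 to 1257 with 48 mice and 416 to 1482 with 47, in either direction. High levels lay in a few mice. Camp, an antimicrobial peptide of neutrophils, had medians of 0 CPM in KO livers and 0.139 CPM in WT livers. It had 32.4 CPM in ZT20 KO replicate 1 (19.2 g, group mean 20.15 g). ZT0 WT replicate 3 (24.0 g, group mean 23.2 g) had 22.5 CPM, and ZT12 WT replicate 4 (20.2 g, group mean 20.1 g) 12.6 CPM. These WT mice were not lighter than their group means. The Camp slope of -0.81 with 48 mice was -0.59 without ZT16 WT replicate 3 and -1.10 without ZT0 WT replicate 2. Adipocyte markers gave 14.8 to 42.9 CPM in sum in KO livers and 8.995 to 43.9 CPM in WT livers, and the defining markers Adipoq, Lep, Plin1, Retn and Cfd had a median of 0. The exocrine pancreas markers reached 461 CPM in 1 mouse, ZT0 KO replicate 2, the lightest of its group, and 11 of them had a median of 0. Hepatocyte markers summed to 23730 to 57143 CPM in KO livers and 30742 to 54785 CPM in WT livers, their median slope was 0.0075 with 48 mice, and 0 of 8 were under that p. The part of these cell types in the slopes was not tested.

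The slope of a gene on weight was not shown to differ between the genotypes. In a fit with a slope for each genotype, 0 of 13646 genes (0.0%) differed at an adjusted p under 0.05 by edgeR, and 426 did at an unadjusted p under 0.05. DESeq2 also called 0. The lowest p belonged to Zfp324, a zinc finger gene, with a slope of -0.040 in KO mice and 0.22 in WT mice (adjusted p = 0.483, edgeR). Taken alone, the KO slope passed for 0 genes, and the WT slope for 1, Igkv3-2, with 1.52 log2 CPM per g (adjusted p = 0.0471, edgeR). No WT slope passed without the 34.5 g mouse (lowest adjusted p 0.060, edgeR) or in a fit of WT mice alone (lowest adjusted p 0.391, edgeR). KO mice held 69.8% of the within-group squares of weight and WT mice 30.2%, and the ZT8 KO group with the 34.5 g mouse alone held 39.2%.

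Because KO mice were heavier, the KO minus WT difference was estimated again at equal body weight. Without weight in the model, 85 genes (0.623%) were higher and 106 (0.777%) lower in KO livers at an adjusted p under 0.05 by edgeR. With weight in the model, 10 (0.0733%) were higher and 28 (0.205%) lower, and all 38 were among the 191 called without weight. The differences themselves moved less than the counts. Over the 191 genes the median size at equal weight was 94.7% of that without weight, and 119 were smaller. Over all genes the standard error was 1.20 times as large. With 47 mice 45 genes were called at equal weight, 33 of them shared with the 38.

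Immediate early genes that stayed lower in KO livers at equal weight were Dusp1, Fos, Jun and Junb. Dusp1, a MAP kinase phosphatase, averaged 25.9 ± 15.3 CPM in KO livers (SD, n = 23) and 78.1 ± 34.3 CPM in WT livers (SD, n = 25). Its KO minus WT difference was -1.74 log2 at equal weight (95% interval -2.19 to -1.28, adjusted p = 2.83e-05, edgeR) and -1.64 without weight. Fos, Jun and Junb, subunits of the AP-1 factor, differed by -2.02, -1.43 and -1.20 log2 at equal weight, with adjusted p of 0.000377, 0.00887 and 0.00609 by edgeR. Zfp36 and Gadd45g were called lower without weight but not at equal weight. Their differences there were -1.03 and -1.43 log2, with adjusted p of 0.0763 and 0.184 by edgeR. Without weight the differences were -1.04 and -1.34 log2. Timp3, an inhibitor of metalloproteinases, averaged 18.3 ± 7.62 CPM in KO livers and 37.9 ± 12.5 CPM in WT livers, with -0.97 log2 at equal weight. Rec8, a meiotic cohesin subunit, and Aim1l also stayed lower, with differences of -1.64 and -2.29 log2.

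On the higher side, Npas2, a paralogue of CLOCK, averaged 5.36 ± 6.25 CPM in KO livers and 3.65 ± 4.82 CPM in WT livers, with SDs that include the daily rhythm. Its difference was 1.85 log2 at equal weight (adjusted p = 0.00122, edgeR) and 1.67 without weight. Ighm had a KO minus WT difference of -2.15 log2 at equal weight (adjusted p = 0.0252), and of -1.15 with an adjusted p of 0.417, edgeR in both, when ZT16 WT replicate 5 was left out.

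Of 31 genes listed from the genotype contrast of these same mice, which is no independent choice, 31 were called without weight, 11 at equal weight with 48 mice and 10 with 47. Some differences were larger at equal weight, such as that of Jun (-1.43 log2, and -1.19 without weight), and others were smaller. Rrm2 had a KO minus WT difference of -0.53 log2 at equal weight and -0.91 without weight, which is 58.3% of the size. Fkbp5, a glucocorticoid-induced chaperone with a slope of -0.14, had -0.35 and -0.65, and Serpinb1a, a protease inhibitor with a slope of 0.19, had 1.25 and 1.73. Cd36, a fatty acid transporter, averaged 457 ± 152 CPM in KO livers and 275 ± 108 CPM in WT livers. Its difference was 0.61 log2 at equal weight (95% interval 0.28 to 0.94, adjusted p = 0.0970, edgeR) and 0.74 without weight (adjusted p = 0.00326, edgeR). The 4 major urinary protein genes of the list, which are near-identical copies, had differences of 1.42 to 1.996 log2 at equal weight. Without weight they had 1.22 to 1.89 log2. These genes passed only without weight, although the differences of Mup15, Mup16 and Mup17 were larger at equal weight. That of Mup12 was smaller. Genotype and weight overlap in these mice, so a difference at equal weight and one without it are 2 descriptions of the same livers.

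**Figure D5:**
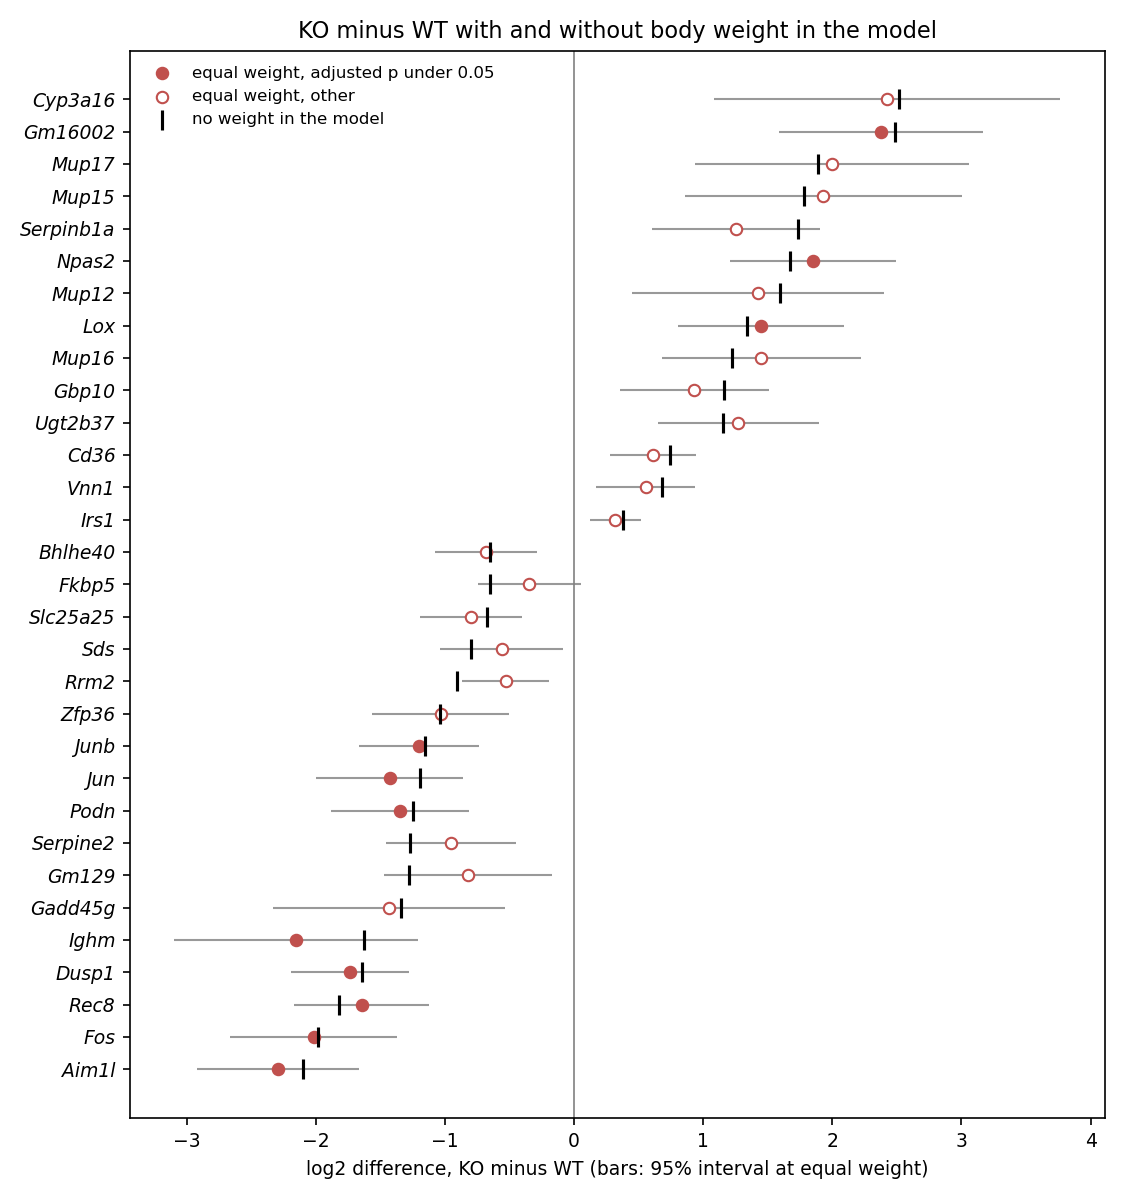
KO minus WT difference (log2, horizontal axis) of 31 genes at equal body weight (circles with 95% intervals, filled where the adjusted p was under 0.05) and without weight in the model (black ticks). Most ticks lie within the intervals, and Rrm2, Fkbp5 and Serpinb1a are among the genes whose circle moved towards 0. Jun and Mup16 are among those whose circle moved away from 0.

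Age and weight could be separated in part, since mice of 1 group differed in both. With age added to the model, 0 genes passed for weight in either fit, and the median slope of the fatty acid oxidation group was 0.059 with 48 mice. The age term itself passed for 2 genes at equal weight, Ighg, an immunoglobulin G heavy chain gene, and Slco1a1, an organic anion transporter, with a lowest adjusted p of 0.019 by edgeR.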

How the data were processed

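RNA of 48 livers was sequenced from TruSeq stranded polyA libraries with 13 PCR cycles, made over 3 days, per the labels' protocols. The deposited values are whole-number read counts per gene, and the authors aligned to mm9 with STAR 2.4.1d, per the submitters' processing notes. The counting program and its annotation are not given in the sources used here, so reads of overlapping and near-identical genes cannot be told apart. The deposited counts are named as sense counts, without further detail. How far reads of antisense genes were kept apart was not tested. All totals lay close together, at 12841969 to 13009797 counts without Alb, which held 5.66 to 14.6% of counts and was left out.

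Counts were fitted with edgeR 4.0.16 in R 4.3.3 (limma 3.58.1): quasi-likelihood test, TMM scaling (factors 0.892 to 1.11), edgeR's filter on low counts, 12 group means and weight, Benjamini-Hochberg adjustment over all genes, threshold 0.05. Per-mouse CPM use these library sizes. The scripts were tested on simulated data. Alternatives were DESeq2 1.42.0, another scaling, no filter, age, GC content, log2 weight, 1 genotype or fewer times, a replicate block and leaving out each mouse. The comparison of the 34.5 g mouse with its companions, the age term, the clock gene distance and part of the leave-one-out fits were added after seeing the data.

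Members and gene lists were chosen with earlier results of these data known. Named genes were to be those past the threshold with the smallest p, with fixed numbers of leading genes for the 47-mouse fit and of members for each list. None passed with 48 mice, so the leading genes there were chosen after their values were seen, as were the members named beyond the rule. Of 627 list entries, 4 were not matched and 3 matched an older symbol. The labels give the replicates as separate samples and say no more of their origin. Results of some genes are not reported here.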

Additional observations from a re-analysis of the deposited data

Results flagged for a closer look

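In groups of 4 or 5 mice, the highest or lowest value was compared with the others by Dixon's gap for weight and 8 genes. Of 99 group values checked, 16 stood apart. Chance flags about 1 in 20 groups, but these genes were chosen for their slopes or for single high values, so the count cannot be read against that rate. Among them 6 belonged to ZT8 KO replicate 2, whose weight was 34.5 g, and which had the highest value of its group for Lipa (412 CPM), Osbpl3 (15.8 CPM), Ces2c (23.9 CPM), Lingo4 (6.81 CPM) and Cml5 (13.3 CPM).

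Igkv3-2 stood apart as highest in ZT16 WT replicate 5 (112 CPM), in ZT12 WT replicate 3 (31.1 CPM) and, at a level near 0, in ZT4 WT replicate 2 (0.153 CPM). Ces2c was highest in ZT12 KO replicate 2 (12.7 CPM) and ZT0 WT replicate 1 (8.03 CPM). Lingo4 was lowest in ZT8 WT replicate 2 (0.941 CPM). Rrm2 was highest in ZT0 WT replicate 2 (12.3 CPM) and ZT4 WT replicate 2 (8.86 CPM). Rps21 was lowest in ZT20 KO replicate 2 (158 CPM) and highest in ZT20 WT replicate 4 (251 CPM).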

How the results depend on the processing

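With 48 mice, where 0 genes were called, DESeq2 called 7 genes, a model with genotype and time as main effects 4, a GC term for the library 2, KO mice alone 1, and leaving out ZT0, ZT4 or ZT16 3, 1 and 3. Leaving out 1 mouse gave 0 to 2 calls, and 11 of the 48 removals gave at least 1. With 47 mice, no filter on low counts gave 4 calls, all for immunoglobulin segments or a predicted gene, and leaving out 1 mouse 0 to 1. Genes at an unadjusted p under 0.05 numbered 543 (48 mice) and 416 (47 mice) without ZT16 WT replicate 5, and 1257 and 1482 without ZT20 WT replicate 2. KO minus WT at equal weight was called for 38 genes, 106 by DESeq2 and 191 without weight. Leaving out 1 mouse gave 18 to 80 calls, with 18 without ZT16 WT replicate 5, 23 without ZT16 KO replicate 3, 24 without ZT4 KO replicate 2, 61 without ZT16 KO replicate 2, 63 without ZT20 WT replicate 2 and 80 without ZT4 KO replicate 1. The slope difference between genotypes gave 0 calls under each alternative run. No result reversed among called values. The causes were not tested.

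Replicate numbers are shared between KO and WT mice, but the labels do not say that a number marks a litter or a batch. Over 23 same-numbered pairs, 22 of the same age, deviations correlated at -0.49 to 0.60 with a median of 0.16, and 14 pairs were over 0.1. A replicate block gave 0 calls with 48 and with 47 mice, and the slope had the other sign for 42 and 87 of 166 named genes. Under the block with 47 mice the median slope was 0.010 for fatty acid oxidation, -0.018 for cholesterol synthesis, 0.065 for gluconeogenesis, -0.17 for lymphocyte markers and 0.80 for neutrophil markers, so all but the first turned sign.

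The 48 mice limit the precision: weight varied little within groups, and 1 mouse held much of that variation.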

Other observations

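Kupffer cell and macrophage markers summed to 173 to 941 CPM in KO livers and 186 to 1699 CPM in WT livers, and the highest sum was in ZT0 WT replicate 3, a mouse of 24.0 g. The 34.5 g mouse had 329 CPM. Of the 15 Kupffer cell and macrophage markers, 0 were under an unadjusted p of 0.05 for weight with 48 mice and 1 with 47. Over all genes the shares in either direction were 6.57% and 7.27%. Erythroid markers summed to 38.4 to 399 CPM in KO livers and 25.5 to 443 CPM in WT livers.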
